A study of Homo sapiens with 2 samples.

Results

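Transcripts of the NF-kappa B system and of the secreted proteins linked to cell senescence were examined after knockdown of KDM4A in LNCaP, a human prostate carcinoma cell line that responds to androgen. The 39 genes were a fixed list, and a gene counted as measured when the array's annotation gave at least 1 probe set to that gene alone. By this rule 32 of the 39 genes were measured with 60 probe sets, among 17689 genes in all. CXCL1, CXCL2, CCL20, AREG, PLAT, MMP1 and IGFBP1 had no such probe set and were not analysed here. The shKDM4A culture had been infected with lentivirus encoding a hairpin against KDM4A, a histone H3 demethylase, and the control culture with virus that carried the empty pLKO.1 vector. RNA from each, taken 3 days after infection, was hybridised to 1 Affymetrix U133 Plus 2.0 array. The control thus carried the viral backbone too, but no hairpin, and the design held 1 hairpin against KDM4A and 1 array a group.

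NF-kappa B is a family of transcription factor dimers, built from the products of NFKB1, NFKB2, RELA, RELB and REL. Inhibitor proteins of the I-kappa B family hold the dimers in the cytoplasm until upstream kinases mark those inhibitors for destruction. The freed dimers bind kappa B sites in DNA and switch on cytokines and chemokines as well as their own inhibitors, which closes a negative feedback loop. Cells that stop dividing for good often secrete a mixture of NF-kappa B-driven cytokines, proteases and insulin-like growth factor (IGF) binding proteins, known as the senescence-associated secretory phenotype.

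Every value below is taken to be on a log2 scale. A difference is the shKDM4A value minus the control value of a probe set, averaged over the probe sets of a gene. The 2 arrays had been centred on their mean before deposit, so that a probe set's values on them are mirror images and levels are lost. Whether a transcript was detected, and whether luminal prostate markers were abundant, could therefore not be read from the file. With 1 array a group no test was possible. Errors (± SD) describe how far the probe sets of a gene lay apart. Pooled over every gene that had several probe sets, this SD was 0.33, and it does not cover the spread between cultures. KDM4A itself was 2.26-fold lower, with differences of -0.90 and -1.46 at its 2 probe sets.

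The promoters were searched for the kappa B consensus, the letters that NF-kappa B dimers are known to prefer. A match describes letters only and shows no binding. A window without 1 says nothing of sites elsewhere, or of sites in the window that differ from the consensus at any letter. The 300 bases from 250 before to 50 after each annotated start, taken from RefSeq on GRCh38.p14, were found for 28 of the 39 genes and searched on both strands. A match occurred in the windows of 15 of the 28 genes (53.6%), against 1937 of all 27305 genes with a window (7.09%) and 5.91% of all 35116 windows. The list was built around NF-kappa B genes and known targets, and the letters were chosen with their matches in view. The higher share among the members is therefore a description and no test. The 15 were NFKB1, NFKB2, REL, NFKBIA, NFKBIB, NFKBIZ, TNFAIP3, CXCL1, CXCL2, CXCL3, CCL20, IL6, IGFBP2, IGFBP5 and IGFBP6. Their 28 matches, some of which overlap on opposite strands, began between 21 and 239 bases before an annotated start. The stretches below show the first match in capitals for some genes whose RNA was measured, read in the gene's direction, with CXCL1 beside its close relative CXCL3. Matches of the measured NFKB2, NFKBIB, NFKBIZ, TNFAIP3, IGFBP2, IGFBP5 and IGFBP6 are not shown. In NFKBIA the match lay on the opposite strand, so the capitals are its complement.
NFKB1, chr4:102501280-102501349, plus strand: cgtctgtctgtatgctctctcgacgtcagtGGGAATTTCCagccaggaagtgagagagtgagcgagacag
REL, chr2:60881497-60881566, plus strand: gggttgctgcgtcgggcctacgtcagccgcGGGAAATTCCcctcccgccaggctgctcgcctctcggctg
NFKBIA, chr14:35404791-35404860, minus strand: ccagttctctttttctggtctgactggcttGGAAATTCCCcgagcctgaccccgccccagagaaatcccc
CXCL3, chr4:74038729-74038798, minus strand: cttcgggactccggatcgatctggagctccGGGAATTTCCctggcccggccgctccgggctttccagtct
CXCL1, chr4:73869284-73869353, plus strand: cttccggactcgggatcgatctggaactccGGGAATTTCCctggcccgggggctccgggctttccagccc
IL6, chr7:22727097-22727166, plus strand: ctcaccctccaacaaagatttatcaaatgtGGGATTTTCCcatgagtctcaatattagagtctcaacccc

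No measured member reached a 2-fold difference in either direction, against 1.16% of all genes that were 2-fold or more higher and 1.44% that were 2-fold or more lower. At 3-fold the shares of all genes were 0.254% higher and 0.458% lower, and no member could pass because none reached 2-fold. At 1.5-fold, SOD2, IGFBP3 and NFKBIE were higher, which is 3 of 32 (9.38%) against 4.3% of all genes. None was 1.5-fold lower, against 4.38% of all genes. Means lay above 0 for 20 of the 32 members (62.5%), against 53.7% of all genes. The member differences ran from -0.29 to 0.69 with a median of 0.13, beside a median of 0.020 over all genes. The mean of 23 members lay within 0.33 of 0, a share of 71.9% against 76.3% of all genes. In RNA of a whole culture, fewer cells making a transcript and less transcript per cell cannot be told apart.

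**Figure D1:**
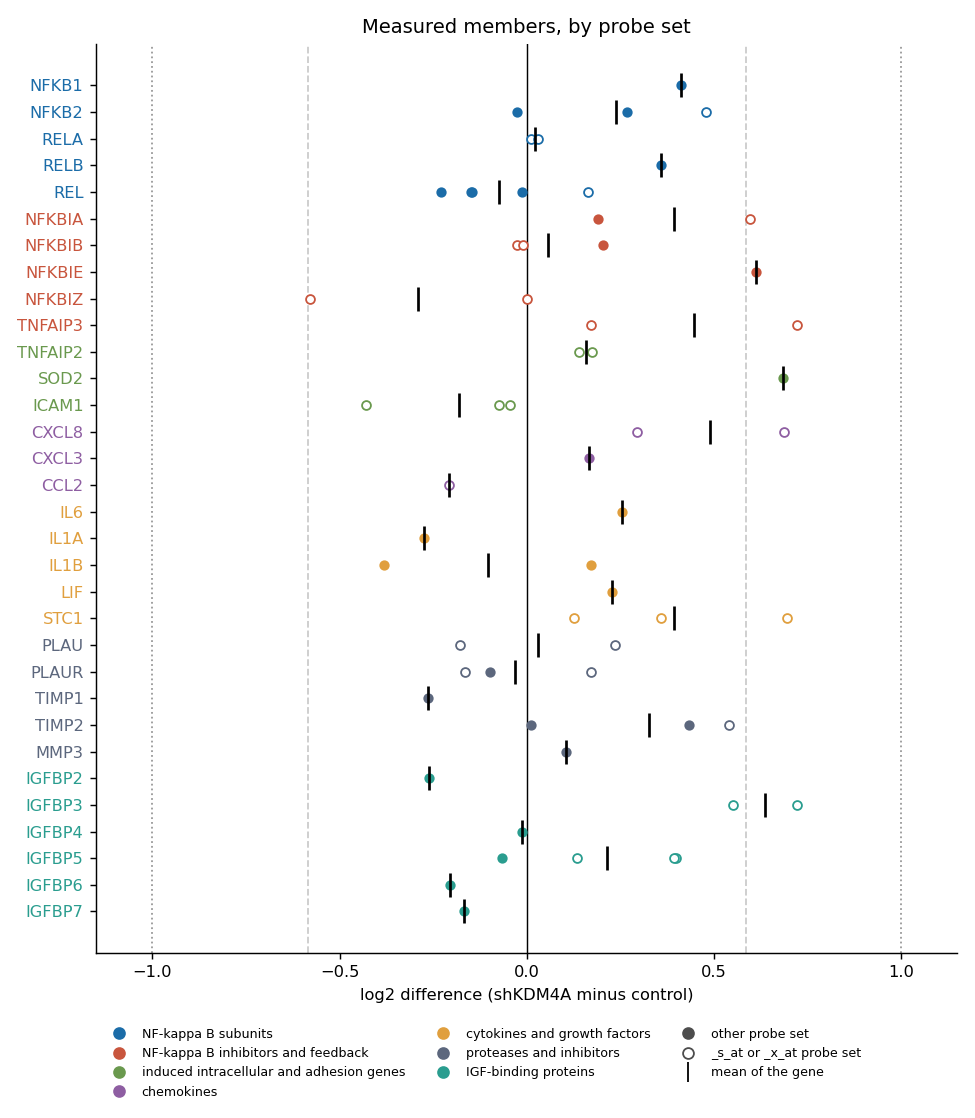
Log2 difference, shKDM4A minus control, of every probe set (circles, open for probe sets ending in _s_at or _x_at) and the mean of each of the 32 measured members (black ticks), coloured by role. Dashed lines mark 1.5-fold and dotted lines 2-fold; the means of SOD2, IGFBP3 and NFKBIE lie past 1.5-fold on the higher side and no probe set reaches 2-fold.

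Among the dimer subunits, 4 of 5 lay above 0, with a median of 0.24 (0.021 over the 3 genes that had several probe sets). NFKB1, the precursor of p50, lay at 0.41 on its 1 probe set, and RELB, the transactivating partner of the alternative pathway, at 0.36 on 1. NFKB2, which is processed to p52, lay at 0.24 ± 0.25, with probe sets at 0.48, 0.27 and -0.026. RELA, the p65 subunit that most inducible dimers contain, lay at 0.021 ± 0.013 over 2 probe sets. REL, a subunit best known from lymphoid cells, lay at -0.075 ± 0.15 over 5 probe sets, which ran from -0.23 to 0.16. The upward values thus belonged to the precursor subunits and RELB, and RELA and REL were near 0.

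The inhibitors and feedback regulators had the highest median of the 7 role groups, 0.39, with 4 of 5 above 0. That median was 0.20 over 3 genes once probe sets ending in _s_at or _x_at, which may detect more than 1 transcript, were set aside. NFKBIE, which encodes I-kappa B epsilon, read 0.31 on the shKDM4A array and -0.31 on the control array, a 1.53-fold difference (0.61) that rests on 1 probe set. NFKBIA, the I-kappa B alpha gene and a classical feedback target, lay at 0.39 ± 0.29, with probe sets at 0.60 and 0.19. TNFAIP3, which encodes the ubiquitin-editing enzyme A20 that damps the upstream kinases, lay at 0.45 ± 0.39, and its probe sets at 0.72 and 0.17. NFKBIA and TNFAIP3 had every probe set above 0, with an SD below the pooled 0.33 for NFKBIA and above it for TNFAIP3. NFKBIB, the I-kappa B beta gene, lay at 0.056 ± 0.13 over 3 probe sets. NFKBIZ, a nuclear I-kappa B protein that acts on secondary response genes, lay at -0.29 ± 0.41. Its probe sets read -0.58 and -0.00074, so the lowest mean of all members came from 1 of 2 probe sets.

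**Figure D2:**
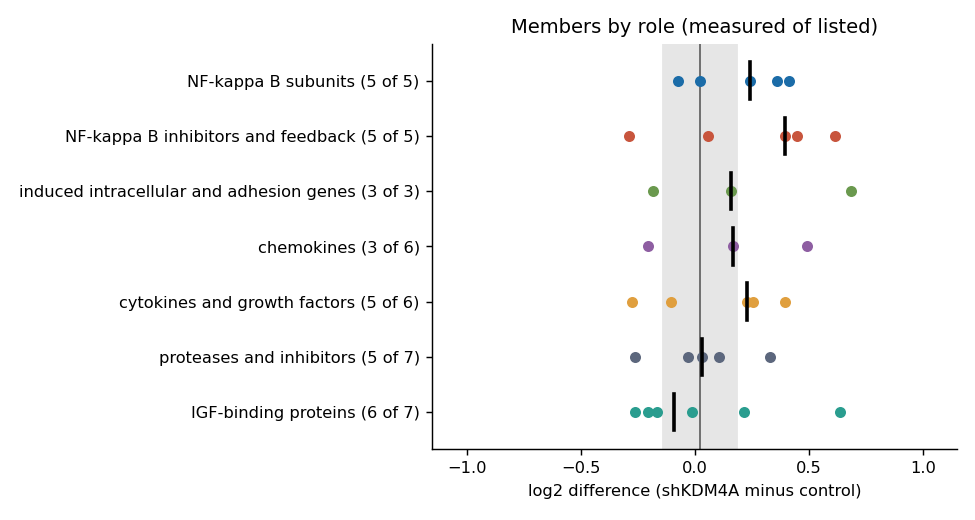
Log2 difference, shKDM4A minus control, of each measured member (points) by role, with the median of each role group (black bars); the grey band spans the quartiles of all 17689 genes, -0.14 to 0.18, and the grey line their median of 0.020. Medians run from 0.39 for inhibitors and feedback regulators to -0.091 for IGF-binding proteins, and members of every group lie on either side of 0.

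Of the induced intracellular and adhesion genes, SOD2 had the largest difference of all members. This mitochondrial manganese superoxide dismutase, a standard NF-kappa B target, read 0.34 on the shKDM4A array and -0.34 on the control array, a 1.61-fold difference (0.69) on 1 probe set. The annotation gives another 3 probe sets to SOD2 together with the overlapping transcript SOD2-OT1, and these read 0.18, 0.36 and 0.45. With them the mean for SOD2 was 0.42, short of 1.5-fold, though all 4 probe sets lay above 0. TNFAIP2, a TNF-induced protein, lay at 0.16 ± 0.024 over 2 probe sets. ICAM1, the leukocyte adhesion receptor, lay at -0.18 ± 0.21, with all 3 probe sets below 0 and the lowest at -0.43.

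Chemokines are small secreted proteins that attract leukocytes, and 3 of the 6 listed were measured. CXCL8, interleukin 8, lay at 0.49 ± 0.28 (1.40-fold), and its probe sets read 0.69 and 0.30. CXCL3, a neutrophil chemokine of the same gene cluster on chromosome 4, lay at 0.17 on 1 probe set, and CCL2, the main chemokine for monocytes, at -0.21 on 1. Of the cytokines and growth factors, IL6 lay at 0.25 and LIF, which signals through the same gp130 receptor chain as IL6, at 0.23, each on 1 probe set. IL1A, an early driver of the secretory programme, lay at -0.27 on 1 probe set. Its neighbour on chromosome 2, IL1B, lay at -0.10 ± 0.39, with probe sets at 0.17 and -0.38. STC1, a secreted glycoprotein hormone, lay at 0.39 ± 0.29, with probe sets at 0.70, 0.36 and 0.13. Medians of 0.17 for the 3 chemokines and 0.23 for the 5 cytokines and growth factors lay above that of all genes (0.062 for 4 cytokine and growth factor genes without _s_at and _x_at probe sets), while the interleukin 1 genes and CCL2 lay below 0.

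Proteases and their inhibitors lay close to the genes at large, with a median of 0.029 over 5 measured members. PLAU, the urokinase that activates plasminogen, lay at 0.029 ± 0.29, and its probe sets at 0.24 and -0.18. PLAUR, the urokinase receptor, lay at -0.030 ± 0.18 over 3 probe sets. MMP3, stromelysin 1, lay at 0.11 on 1 probe set. The tissue inhibitors of metalloproteinases lay on opposite sides, TIMP2 at 0.33 ± 0.28 over 3 probe sets (0.54, 0.43 and 0.011) and TIMP1 at -0.26 on 1. None of the probe sets in this group reached 1.5-fold.

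The IGF-binding proteins, which carry IGFs in blood and tissue fluid and limit their access to the receptor, lay on either side of 0, with 2 of 6 measured members above it. IGFBP3, the main carrier in serum and an inhibitor of cell growth, was 1.55-fold higher (0.64 ± 0.12). The individual readings of its 2 probe sets were 0.36 and 0.27 on the shKDM4A array and -0.36 and -0.27 on the control array. SOD2 and NFKBIE, the other members past 1.5-fold, rest on 1 probe set each. IGFBP5 lay at 0.22 ± 0.22, with probe sets at 0.40, 0.39, 0.13 and -0.066. IGFBP2, its neighbour on chromosome 2, lay at -0.26, IGFBP6 at -0.21, IGFBP7 at -0.17 and IGFBP4 at -0.013, each on 1 probe set. The group median of -0.091 was the lowest of the 7 role groups and lay below 0, although IGFBP3 was the second highest member of all. Over IGFBP3 and IGFBP5 alone, which had several probe sets, the median was 0.43.

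Members with a kappa B match at the promoter were compared with those without. The 12 measured members with a match had a median of 0.19, with 8 above 0, and the 12 measured members with a window and no match a median of 0.0036, with 6 above 0. Measured members without a window entered neither group: NFKBIE (0.61), STC1 (0.39), RELB (0.36), TIMP2 (0.33), LIF (0.23), MMP3 (0.11), IGFBP7 (-0.17) and CCL2 (-0.21). All subunits and inhibitors with a window had a match except RELA, and the parts of match and role were not separated. Over all measured genes the corresponding medians were 0.053 for 1199 genes with a match and 0.017 for 12685 without, with 58.0% and 53.1% above 0. The letters GGGAATTTCC were the most frequent site, found in 8 of the 28 members with a window, of which 6 were measured, NFKB1, REL, NFKBIA, NFKBIB, NFKBIZ and CXCL3. Differences of these 6 genes spanned -0.29 to 0.41, so the same site stood before members in the lower and in the higher part of the list. SOD2, IGFBP3 and CXCL8, among the 4 highest members, had no exact match in their windows. Sites that depart from the consensus were not searched for, so members without a match may still hold a kappa B site there. The shorter letters GGGANTTCC, which can overlap a consensus match, were found in 2 members, NFKB2 and TNFAIP3 (2.23% of all genes), and TGANTCA, read by AP-1, in 4 (9.37% of all genes). Windows of the members had a GC content of 63.2%, against 57.5% over all windows, and numbered 1.46 a gene against 1.29.

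**Figure D3:**
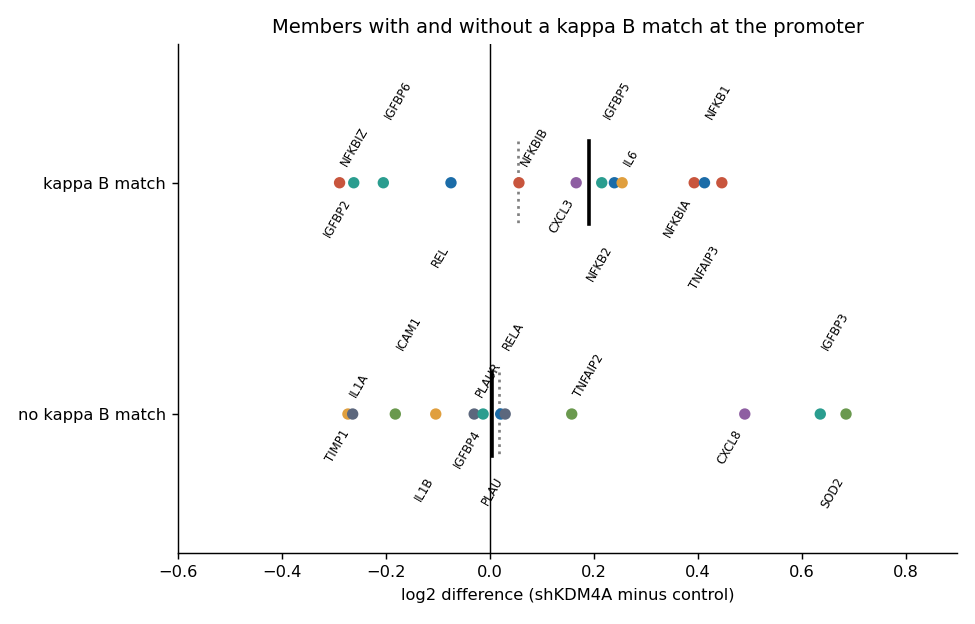
Log2 difference, shKDM4A minus control, of the 12 measured members with a kappa B consensus match in a promoter window (top) and the 12 with a window and no match (bottom), coloured by role as in the plot of probe sets. Black bars are the member medians, 0.19 and 0.0036, and dotted bars the medians of all measured genes with and without a match, 0.053 and 0.017.

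Medians of the members' probe sets differed between types of probe set. Those ending in _s_at numbered 28 among the members and had a median of 0.17, and the 4 ending in _x_at had a median of 0.34. None of these 4 lay near that median, with NFKBIB at -0.025 and -0.010, CXCL8 at 0.69 and STC1 at 0.70. The other 28 probe sets had a median of -0.0013. Over all probe sets with 1 gene the medians were 0.043 for 9074 _s_at, -0.00091 for 2759 _x_at and 0.020 for 23047 others. In IGFBP5 the 3 _s_at probe sets lay above 0 and the other below it, and in NFKBIA the _s_at probe set read 0.60 and the other 0.19. The part of probe set type in the differences was not tested. For 10 of the 17 members measured more than once (58.8%) the probe sets all fell on 1 side of 0, against 50.3% of 8944 such genes.

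Genes upstream of the dimers showed no 2-fold difference in their means, against 1.16% of all genes higher and 1.44% lower. Unlike in the members, single probe sets did pass 2-fold, in TLR3 and in CYLD. CYLD lay at -0.21 ± 0.67 over 7 probe sets from -1.10 to 0.79. The 28 listed genes were receptors, adaptors and kinases, ubiquitin ligases, and regulators that restrain the pathway, such as CYLD, TNIP1 and TNIP2. Of these, 23 were measured, with a median of 0.10 and 14 above 0 (60.9%, against 53.7% of all genes). MAP3K14, the NIK kinase that starts the alternative pathway through NFKB2 and RELB, was 1.90-fold higher (0.93) on 1 probe set. IKBKB, the catalytic kinase of the classical pathway, lay at 0.49 ± 0.17 over 3 probe sets from 0.31 to 0.64, and MYD88, the adaptor of Toll-like and interleukin 1 receptors, at 0.51 on 1. TLR3, the receptor for double-stranded RNA, lay at -0.66 ± 0.997, and only 1 of its probe sets (-1.37) carried that value, with the other at 0.044. The 13 measured receptors of the secreted members had a median of 0.17. None was 1.5-fold apart, against 4.3% of all genes higher and 4.38% lower. The farthest from 0 was IL1R2, at 0.32, followed by ERBB2, at 0.25 ± 0.35 over 3 probe sets, EGFR, at -0.22 ± 0.52 over 9, and IL1RAP, at 0.22 on 1. Probe sets of EGFR ran from -1.22 to 0.44. In the IGF axis 8 genes were measured, with a median of 0.11. The receptor gene IGF1R lay at 0.18 ± 0.79 over 5 probe sets, which ran from -1.05 to 1.06 and so disagreed in direction. IGFALS, the partner of IGFBP3 in the serum complex, lay at 0.35 on 1 probe set, IGF2R at 0.31 ± 0.41 over 2, IRS1 at -0.24 ± 0.38 over 2 and INSR at -0.20 ± 0.36 over 5.

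Other secreted genes linked to senescence held larger single differences in opposite directions. Of 28 listed, 24 were measured, with a median of 0.036. Past 2-fold lay 1 gene on the higher side and 1 on the lower side, against 1.16% and 1.44% of all genes. MMP10, stromelysin 2, was 2.56-fold higher (1.36) on 1 probe set, while MMP3, a close relative from the same gene cluster on chromosome 11, lay at 0.11. CXCL12, a stromal chemokine, was 2.18-fold lower (-1.13 ± 0.73, probe sets at -0.61 and -1.65), and CTSB, the lysosomal protease cathepsin B, lay at -0.63 ± 0.12 over 5 probe sets, all below 0. FGF2, a fibroblast growth factor, lay at 0.37 on 1. Among 7 measured markers of arrest and senescence, CDKN1A, the p21 cell cycle inhibitor, was 3.81-fold higher (1.93) and LMNB1, the lamin whose loss accompanies senescence in fibroblasts, 3.65-fold lower (-1.87), each on 1 probe set. HMGB2, a chromatin protein, lay at -1.11 ± 1.97 with probe sets at 0.28 and -2.51, HMGB1 at -0.66 ± 0.19 over 5 probe sets and CDKN2A, the p16 locus, at 0.28 ± 0.16 over 3. CDKN2B lay at 0.069 on 1 probe set and RB1 at -0.0073 ± 0.24 over 2. The median of these 7 markers is that value of RB1 and does not describe the list. In it 1 gene was past 2-fold on the higher side and 2 on the lower side, against 1.16% and 1.44% of all genes.

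**Figure D4:**
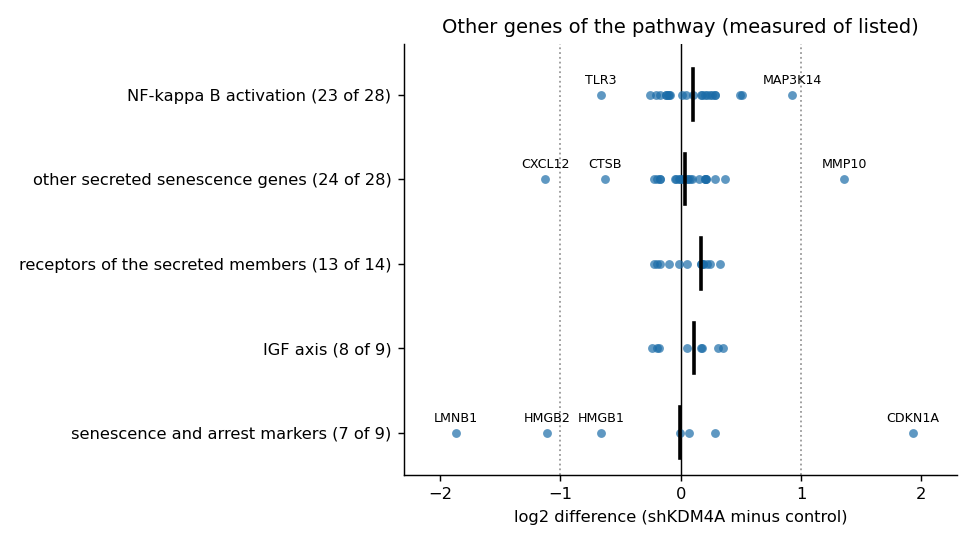
Log2 difference, shKDM4A minus control, of each measured gene (points) in 5 further lists, with list medians (black bars), dotted lines at 2-fold and names for genes at least 1.5-fold apart. Most genes lie within 1.5-fold, and the genes past 2-fold are MMP10 and CDKN1A on the higher side and CXCL12, HMGB2 and LMNB1 on the lower side.

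Markers of other cell types that could bring such transcripts were set beside these values. Of 8 listed leukocyte markers 3 were measured, from -0.14 (NKG7) to 0.24 (CD3D), of 4 endothelial markers 3, from -0.065 to 0.13, and of 4 basal epithelial markers 3, from -0.22 to 0.41. Of 9 markers of fibroblasts and smooth muscle 8 were measured, with a median of 0.11 and 6 above 0 (75%, against 53.7% of all genes). ACTA2 lay at 2.14 ± 2.42, COL1A1 at 0.73 ± 0.76 and COL3A1 at 0.63 ± 0.68, in each case with probe sets far apart. These 3 were past 1.5-fold on the higher side and 0 on the lower, against 4.3% and 4.38% of all genes. The rest lay nearer 0, with THY1 at 0.15, COL1A2 at 0.060, DCN at 0.044, PDGFRB at -0.23 and FAP at -0.29. Of 8 luminal prostate markers 6 were measured, with a median of 0.11 and 5 above 0 (83.3%, against 53.7% of all genes). These were KRT8 at 0.41, KLK2 at 0.39 ± 0.61, KLK3 at 0.11, HOXB13 at 0.10 and KRT18 at 0.076. TMPRSS2, at -0.76 ± 0.16, was the only luminal marker below 0. The part of all these cell type markers in the members' differences was not tested. Since levels are lost, it cannot be said which of them were at background.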

How the data were processed

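The authors deposited log2-scale values of 44672 probe sets on 2 arrays, 1 each for shKDM4A and control, and the submitters' processing notes name RMA without a version. The values of every row sum to 0 within 1e-06. No source used here gives the log base, the centring or any earlier filter, and base 2 was taken from the scale RMA works on. Genes came from the platform annotation: 34880 probe sets with 1 gene were used, of which 34839 matched RefSeq (GRCh38.p14) by Entrez identifier with no symbol changed. Another 1619 with several genes, 8131 unnamed here and 42 array controls entered no gene value. The size rules of 2-fold and 1.5-fold are not tests.

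Members and lists were chosen with earlier results of these data known, and the promoter letters with their matches in view. All members are given, and those 1.5-fold apart have their array values. Up to 4 genes of each further pathway list are named by size, except that all 7 measured markers of arrest and senescence are given. CYLD and IGF1R were added for the wide spread of their probe sets. Alternatives were other choices of probe sets, medians over them, re-centring, and rules of 1.5-fold and 3-fold. The calculations were tested on simulated data. Python 3.11.15, numpy 2.4.6, pandas 2.3.3 and matplotlib 3.10.9 were used. The number of arrays limits the precision.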

Additional observations from a re-analysis of the deposited data

How the results depend on the processing

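The counts of 0 members past 2-fold in each direction held under every choice of probe sets, centring and summary tried and at 3-fold. No single probe set of a member reached 2-fold, and re-centring shifted values by only 0.014. None of these choices could therefore have changed the counts. At 1.5-fold 3 members were higher and 0 lower. The median of all members ran from 0.11 to 0.16 under these choices. Role group medians moved more, because some rest on 1 to 4 genes under an alternative. Among genes with 2 or more probe sets the medians were 0.021 for the subunits (3 genes), 0.22 for the inhibitors and feedback regulators (4 genes), 0.49 for the chemokines (CXCL8 alone) and 0.43 for the IGF-binding proteins (IGFBP3 and IGFBP5). That last value lies on the other side of 0 from the -0.091 over 6 genes, and the induced genes, left with TNFAIP2 and ICAM1, stood at -0.012. Without probe sets ending in _x_at or _s_at they were 0.20 for the inhibitors and feedback regulators (3 genes), 0.69 for the induced genes (SOD2 alone) and 0.062 for the cytokines and growth factors (4 genes). In that setting members without a kappa B match stood at -0.10 (6 genes) and those with one at 0.14 (10 genes). With the median difference of all probe sets subtracted, members without a match stood at -0.011. The mean of IGFBP5 changed sign without those probe sets (-0.066), as did NFKBIB with a median over probe sets (-0.010). Counting probe sets that name several genes was chosen after seeing the data and took SOD2 to 0.42. No paired analysis was possible because each group had 1 array.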
